A study of Homo sapiens with 2 samples.

Results

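The barcodes described here are endothelial cell barcodes in which mitochondrial transcripts made up an unusually large share of the RNA. They were chosen by 3 measured values: at least 1000 UMIs (unique molecular identifiers, each counting 1 captured RNA molecule), at least 500 detected genes, and from 5% to 20% MT- UMIs. MT- UMIs are those from the 13 protein-coding genes of the mitochondrial genome, whose symbols start with MT-. The rule selected 54 of the 1635 deposited barcodes of the 5% pdRBC library and 44 of the 3858 of the hRBC library, 98 of 5493 in all. Each set was compared with the barcodes of its own library that had the same range of UMIs but under 5% MT- UMIs, 1274 in 5% pdRBC and 1841 in hRBC, called the low mitochondrial barcodes below. The cells were human umbilical vein endothelial cells (HUVECs) lining 4-channel microfluidic devices. In the 5% pdRBC device they were perfused for 4 h with healthy red blood cells of which 5% had been replaced by pharmacologically dehydrated red blood cells (nystatin and sucrose), and in the hRBC device with healthy red blood cells alone. The mean corpuscular hemoglobin concentration given for the 5% pdRBC sample was 40 to 42 g/dL. Both devices shared the cell type, 48 h of growth, the channel design (50 µm) and the 10x 5′ kit. There was 1 library per condition, so library and perfusion cannot be told apart, no difference has a replicate check, and no p-value is given.

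The mitochondrial genome encodes core subunits of the respiratory chain, while most other respiratory subunits and every cytosolic ribosomal protein are encoded in the nucleus and translated in the cytoplasm. A high share of mitochondrial transcripts in a droplet is widely used as a quality measure, since it is known from stressed, damaged and metabolically active cells alike. NEAT1 is a long noncoding RNA that stays in the nucleus and builds paraspeckles, and MALAT1 is a nuclear long noncoding RNA of nuclear speckles. Genes that span long stretches of the genome give long intron-containing precursors that are spliced in the nucleus before export.

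Because MT- UMIs chose the barcodes, every level below is a CPM whose denominator leaves out the MT- UMIs, from counts summed over barcodes. The high mitochondrial barcodes held 175224 such UMIs in 5% pdRBC and 99402 in hRBC, and the low mitochondrial barcodes 10717863 and 3836955. A count of 3, the limit that a count of 0 allows, was worth 17.1 CPM in the 5% pdRBC sum and 30.2 CPM in the hRBC sum. Intervals are exact 95% intervals of the counts, which cover counting error only. Of the barcode sequences, 9 occurred in both libraries, and 0 of these were high mitochondrial barcodes.

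The MT- share, which chose the barcodes, ran from 5.08% to 19.5% with a median of 9.48% in 5% pdRBC, and from 5.02% to 12.7% with a median of 5.75% in hRBC. The medians of the low mitochondrial barcodes were 1.85% in 5% pdRBC and 2.26% in hRBC. In hRBC 25 of the 44 lay between 5% and 6%, just inside the limit, against 10 of 54 in 5% pdRBC, and 28 barcodes of 5% pdRBC and 84 of hRBC lay just outside it, between 4% and 5%. At 8% or more there were 35 barcodes in 5% pdRBC and 9 in hRBC. The high mitochondrial barcodes of 5% pdRBC were shallower than their comparison, with a median of 2744 UMIs (1162 to 14433) against 8831.5 UMIs, while those of hRBC had a median of 1923.5 UMIs (1038 to 7607) against 1673 UMIs.

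Of the barcodes that passed the limits on UMIs and genes and had at most 20% MT- UMIs, the high mitochondrial barcodes made up 3.37% in 5% pdRBC (54 of 1601, interval 2.54% to 4.38%) and 1.72% in hRBC (44 of 2555, interval 1.25% to 2.31%). This share differed with depth. Between 1500 and 2500 UMIs it was 35.3% in 5% pdRBC (18 of 51) and 2.67% in hRBC (18 of 674), and between 5000 and 10000 UMIs it was 1.24% (8 of 644) and 1.30% (3 of 231). At 10000 UMIs or more it was 0.275% (2 of 726) in 5% pdRBC and 0 of 538 in hRBC, which allows up to 0.683%. The 5% pdRBC library held few shallow barcodes of any kind, so the denominators differ, and with a lower limit of 500 UMIs and no limit on genes the shares were 3.52% in 5% pdRBC and 3.64% in hRBC.

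**Figure D1:**
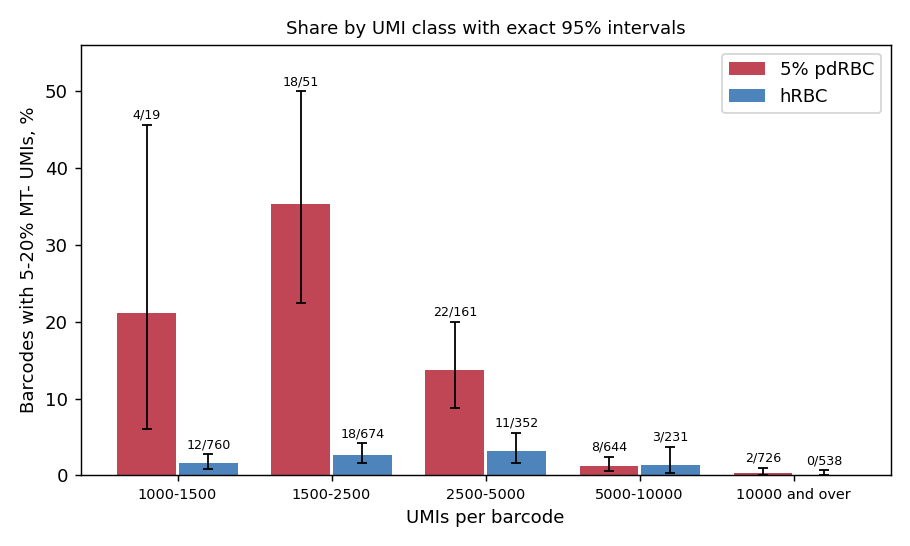
Share of barcodes with 5% to 20% MT- UMIs (y axis, % of the barcodes kept) by class of UMIs per barcode (x axis) in 5% pdRBC (left bar of each pair) and hRBC (right bar). Bars are shares, lines exact 95% intervals and labels the counts. The 5% pdRBC bars exceed the hRBC bars below 5000 UMIs and are close to them, at 1.24% and 1.30%, between 5000 and 10000 UMIs.

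The make-up of the mitochondrial transcripts themselves, which their total does not fix, differed little. MT-CO2, a subunit of cytochrome c oxidase, was the most abundant with 32.2% of MT- UMIs in the high mitochondrial barcodes of 5% pdRBC against 31.7% in the low mitochondrial ones, and 27.6% against 25.04% in hRBC. The ratio of the 2 shares lay between 0.86 (MT-ATP6) and 1.19 (MT-ND2) for all 13 genes in 5% pdRBC. In hRBC 12 genes lay between 0.88 (MT-ND4) and 1.17 (MT-ND4L). The remaining gene, MT-ND6, the only protein-coding gene on the light strand of the mitochondrial genome, had 1.32% of MT- UMIs (interval 1.07% to 1.61%) in the high mitochondrial barcodes of hRBC against 2.34% (2.25% to 2.44%) in the low ones, and 1.05% against 0.99% in 5% pdRBC. MT-ND6 was singled out after its values were seen.

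NEAT1 was 4.59-fold higher per non-MT UMI in the high mitochondrial barcodes of 5% pdRBC and 5.17-fold higher in those of hRBC. It stood at 11751 CPM against 2558 CPM in 5% pdRBC (log2 fold 2.20, interval 2.13 to 2.26) and at 9748 CPM against 1888 CPM in hRBC (2.37, 2.27 to 2.47). NEAT1 lies on chromosome 11 from 65422774 to 65445540 (GRCh38, GENCODE 29). Per barcode its share of non-MT UMIs ran from 0.041% over a median of 1.09% to 3.09% in the 54 barcodes of 5% pdRBC, against a median of 0.231% in the low mitochondrial ones, and from 0 over a median of 0.575% to 3.12% in the 44 of hRBC, against a median of 0.141%. The groups overlapped: 40 of 54 and 27 of 44 high mitochondrial barcodes exceeded the 95th percentile of their comparison. NEAT1 was thus high in the sums and in most barcodes, but not in each one. The label of these barcodes names NEAT1, ANO2, MECOM and PREX2. These genes were chosen with earlier results of these data known, so their levels describe the barcodes and do not test the label. The other genes of the label were called higher as well, except that ANO2 had under 10 expected UMIs in hRBC and so was not measured there. ANO2, a calcium-activated chloride channel, stood at 788 CPM against 113 CPM in 5% pdRBC (2.81, 2.54 to 3.06) and at 241 CPM against 95.4 CPM in hRBC (1.37, 0.68 to 1.94). MECOM, a zinc finger transcription factor, stood at 1564 CPM against 275 CPM in 5% pdRBC (2.51, 2.32 to 2.69) and at 734 CPM against 241 CPM in hRBC (1.62, 1.24 to 1.95). PREX2, an exchange factor for Rac, stood at 594 CPM against 119 CPM in 5% pdRBC (2.33, 2.02 to 2.61) and at 262 CPM against 119.6 CPM in hRBC (1.15, 0.50 to 1.70). A single 5% pdRBC barcode held 100 of the 274 MECOM UMIs, and without it the log2 fold was 1.93. After thinning each barcode to 800 non-MT UMIs, an ANO2 UMI was found in 46.3% of the high mitochondrial barcodes of 5% pdRBC against 8.56% of the low ones, and in 11.4% against 6.36% in hRBC. Without thinning these shares were 66.7% against 45.0% and 27.3% against 16.1%. The share of barcodes with an ANO2 UMI that free RNA gives was not measured. Depth was matched within classes of UMIs as well. In 5% pdRBC between 1500 and 2500 UMIs, NEAT1 stood at 11506 CPM in 18 high mitochondrial barcodes against 3309.7 CPM in 33 low ones, and genes spanning over 100 kb took 42.7% against 23.1% of non-MT UMIs. Between 2500 and 5000 UMIs these values were 13229 CPM against 2581 CPM and 38.7% against 16.5%. Between 1000 and 1500 UMIs, with 4 barcodes against 15, they were 9162 CPM against 5708 CPM and 33.7% against 25.02%. In hRBC between 1500 and 2500 UMIs they were 4821 CPM against 2064 CPM and 24.0% against 15.1%.

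**Figure D2:**
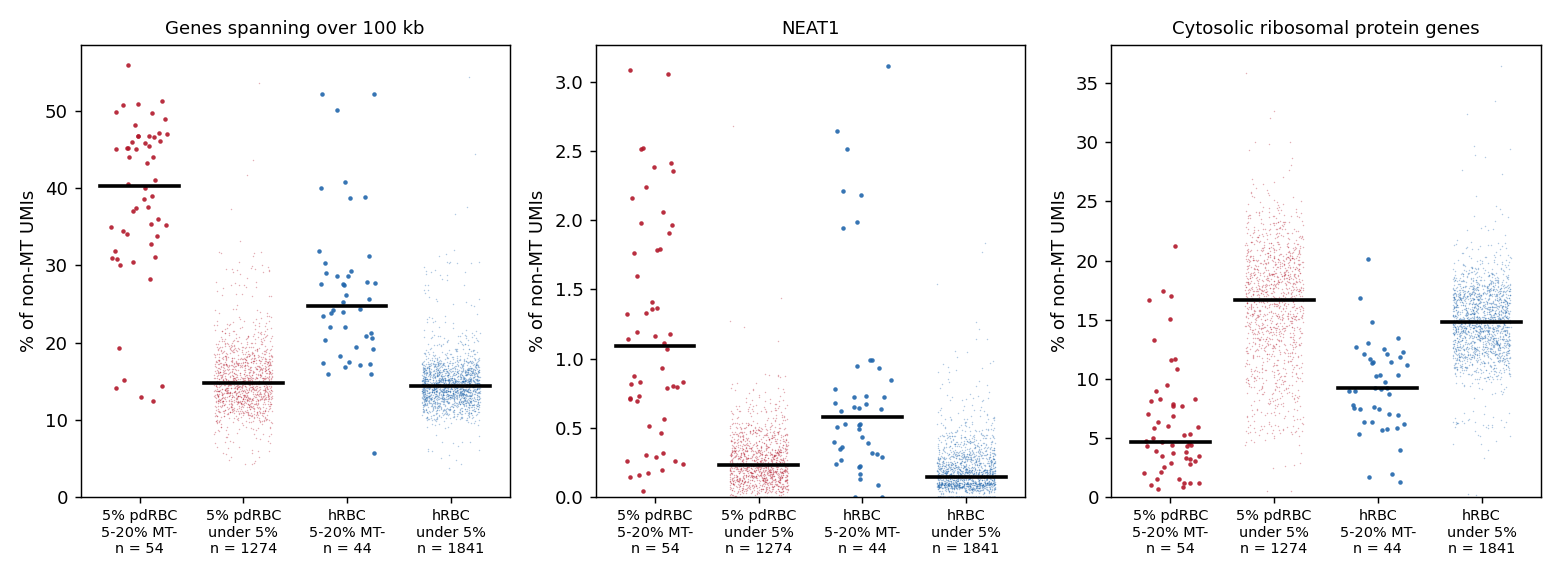
Share of non-MT UMIs (y axes, %) per barcode from genes spanning over 100 kb, from NEAT1 and from cytosolic ribosomal protein genes. Each point is 1 barcode, and lines are medians; in each library the high mitochondrial barcodes stand left of the low mitochondrial ones. Medians for long genes were 40.3% against 14.8% in 5% pdRBC and 24.8% against 14.4% in hRBC, with overlap in every panel.

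Across all genes the contrast was broad and ran the same way in both libraries. A gene was measured where at least 10 UMIs were expected in the smaller sum, and was called where its level differed at least 2-fold with an interval that left out 1. In 5% pdRBC 557 of 3071 measured genes were higher (18.1%) and 529 lower (17.2%) in the high mitochondrial barcodes, and in hRBC 185 of 1754 were higher (10.5%) and 178 lower (10.1%). The median log2 fold of all measured genes was -0.29 in 5% pdRBC and -0.25 in hRBC. With folds centred on that median, 743 genes were higher and 193 lower in 5% pdRBC, and 286 higher and 74 lower in hRBC. With the low mitochondrial barcodes matched by class of UMIs the calls were 459 higher and 370 lower in 5% pdRBC and 189 and 166 in hRBC, and among barcodes of 1000 to 3000 UMIs they were 226 and 234, and 62 and 81. Of the 1753 genes measured in both libraries, 1464 (83.5%) had folds of the same sign, and 0 were called in opposite directions. Among these 1753 genes, 240 were called higher in 5% pdRBC and 185 in hRBC, and the 154 called higher in both were 64.2% and 83.2% of them. Among the same genes, 358 were called lower in 5% pdRBC and 178 in hRBC, and the 66 called lower in both were 18.4% and 37.1% of them.

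The 15 genes that stood highest in both libraries were FAM155A, NEAT1, APBB2, MAML3, MED13L, MEG3, RBMS3, ZSWIM6, SAMD4A, PTPRM, DOCK4, SSH2, ZFAND3, RERE and MAST4. Clone-named, LINC, cytosolic ribosomal protein, hemoglobin, XIST and Y-linked genes were left out of this ranking. FAM155A, on chromosome 13 from 107163510 to 107866735, encodes a subunit of the NALCN sodium leak channel and stood at 1900.4 CPM against 371 CPM in 5% pdRBC (2.36, 2.19 to 2.52) and at 1439 CPM against 299.98 CPM in hRBC (2.27, 2.001 to 2.51). MEG3, an imprinted noncoding RNA, stood at 907 CPM against 196 CPM and at 634 CPM against 164 CPM. MED13L, a subunit of the Mediator kinase module, stood at 588 CPM against 145 CPM and at 543 CPM against 132 CPM. PTPRM, a receptor tyrosine phosphatase of endothelial junctions, stood at 377 CPM against 103 CPM and at 382 CPM against 103 CPM. These genes differ widely in function, and apart from NEAT1 (22.8 kb) and MEG3 (81.6 kb) each of them spans at least 214 kb of the genome.

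**Figure D3:**
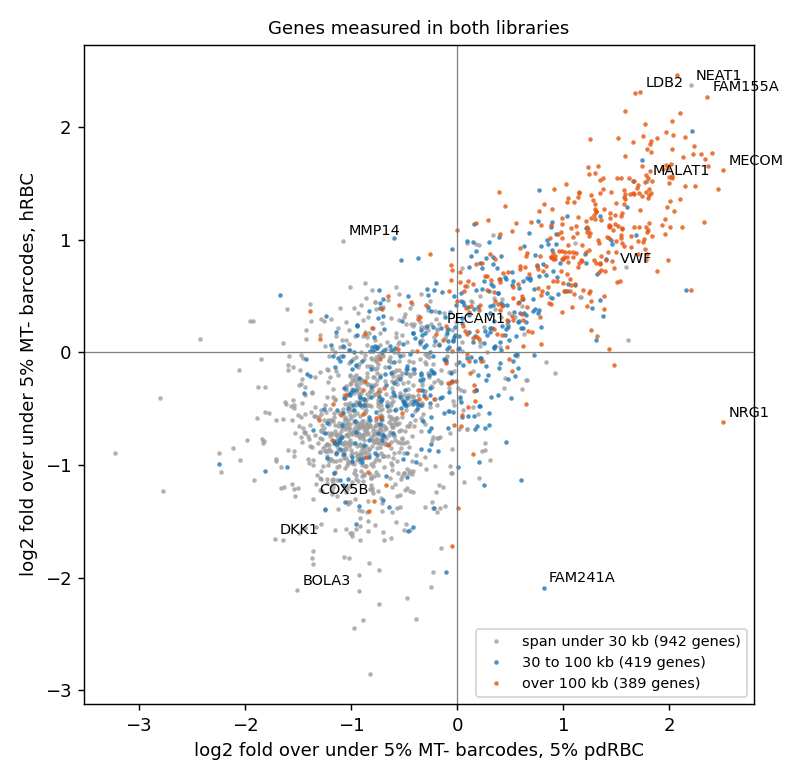
log2 fold of the high over the low mitochondrial barcodes in 5% pdRBC (x axis) and hRBC (y axis) for the genes measured in both, coloured by gene span, with named genes labelled. Long genes gather at the upper right and short ones at the lower left; FAM241A, NRG1 and MMP14 lie off the diagonal.

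Folds were higher in classes of longer gene span. In 5% pdRBC the median log2 fold was -0.86 for the 694 measured genes under 10 kb, -0.67 for 781 genes of 10 to 30 kb, -0.02 for 838 genes of 30 to 100 kb, 1.05 for 600 genes of 100 to 300 kb and 1.77 for 156 genes over 300 kb. In hRBC the medians were -0.68, -0.46, 0.005, 0.74 and 1.40 in the same order. In 5% pdRBC 142 of the 156 longest genes were called higher and 0 lower, and in hRBC 72 of 89 were higher and 0 lower. The order was the same among genes whose longest transcript had 4000 to 8000 bases, where the median was -0.51 under 10 kb and 1.70 over 300 kb in 5% pdRBC, and -0.32 and 1.37 in hRBC. Transcript length followed the fold too. Among genes spanning 30 to 100 kb the median was -0.67 for longest transcripts of 1000 to 2000 bases and 0.35 for those over 8000 bases in 5% pdRBC, and -0.47 and 0.39 in hRBC. Of the 154 genes higher in both libraries, 144 (93.5%) spanned over 100 kb, against 22.2% of all genes measured in both. Of the 66 lower in both, 60 (90.9%) spanned under 30 kb, against 53.7%. The 2 genes under 30 kb that were higher in both were NEAT1 and MALAT1, named because there were no others. MALAT1 stood at 28906 CPM against 8380 CPM in 5% pdRBC (1.79, 1.75 to 1.83) and at 28631 CPM against 9980 CPM in hRBC (1.52, 1.47 to 1.58). Across genes the Spearman correlation of log2 fold and span was 0.71 in 5% pdRBC and 0.66 in hRBC, and that of log2 fold and longest transcript 0.59 and 0.61; genes are not independent replicates. Per barcode, genes over 100 kb took a median of 40.3% of non-MT UMIs (12.5% to 56.04%) against 14.8% in 5% pdRBC, and 24.8% (5.73% to 52.3%) against 14.4% in hRBC. With each barcode thinned to 800 non-MT UMIs, the median number of genes detected was 618.5 against 561 in 5% pdRBC and 610.0 against 579 in hRBC.

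**Figure D4:**
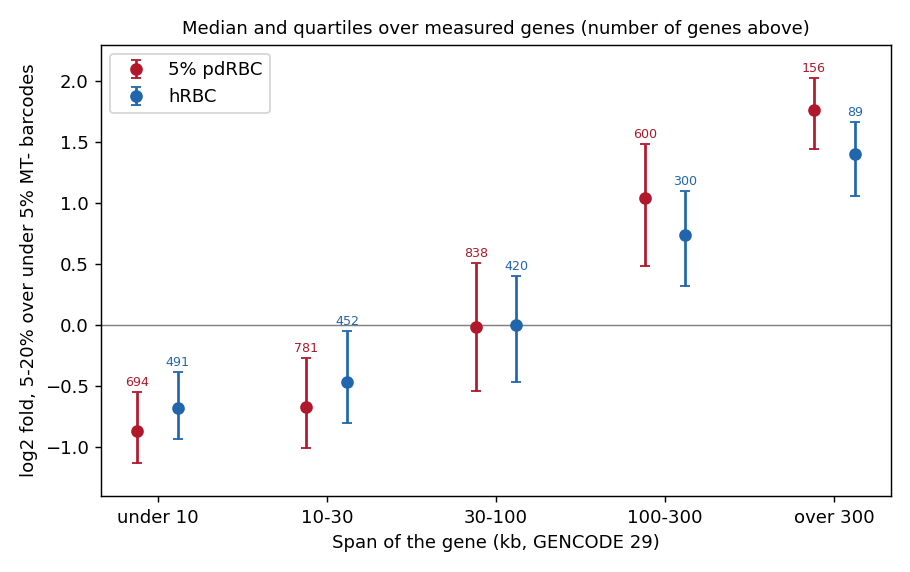
Median log2 fold (points) of the high over the low mitochondrial barcodes, with quartiles over genes (bars), by span of the gene in kb (x axis) for 5% pdRBC (left of each pair) and hRBC (right). Numbers are measured genes. Medians climb from -0.86 to 1.77 in 5% pdRBC and from -0.68 to 1.40 in hRBC.

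The gene lists described from here on were chosen with earlier results of these data known. Over all measured genes 18.1% were called higher in 5% pdRBC and 10.5% in hRBC. Among genes of 100 to 300 kb these shares were 52.7% and 31.0%, and among those over 300 kb 91.0% and 80.9%. Of 22 measured long endothelial genes in 5% pdRBC, 19 were called higher and 0 lower (median log2 fold 1.75), and in hRBC 15 of 17 were higher and 0 lower (1.41). This list was picked for long genes and holds the label gene ANO2, so its counts are not read as particular to endothelial genes. Among them LDB2, a LIM domain adaptor of transcription complexes, stood at 736 CPM against 223 CPM in 5% pdRBC and at 825 CPM against 168 CPM in hRBC. Of 22 chromatin and transcription genes measured in 5% pdRBC, 14 were higher and 0 lower (1.30), and of 11 in hRBC 7 were higher and 0 lower (1.18). ZEB1, a repressor known from epithelial to mesenchymal transition, stood at 2186 CPM against 425 CPM in 5% pdRBC (2.36, 2.21 to 2.51) and at 1207 CPM against 386 CPM in hRBC (1.65, 1.36 to 1.91). Of the nuclear long noncoding RNAs, a list that holds the label gene NEAT1, 7 of 10 measured in 5% pdRBC were higher and 1 lower. In hRBC 4 of 6 were higher and 0 lower. PVT1, the noncoding neighbour of MYC, stood at 673 CPM against 128 CPM and at 473 CPM against 140.5 CPM. The lower noncoding RNA, in 5% pdRBC, was GAS5, a spliced host of small nucleolar RNAs (194 CPM against 448 CPM).

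All 78 measured cytosolic ribosomal protein genes had a log2 fold under 0 in both libraries, with a median of -1.08 in 5% pdRBC and -0.79 in hRBC, beside -0.29 and -0.25 over all measured genes. The 2-fold call was passed by 53 of 78 in 5% pdRBC, where 17.2% of all measured genes were lower, and by 7 of 78 in hRBC, a share near the 10.1% of all measured genes. RPS12, a protein of the small ribosomal subunit, stood at 2494 CPM against 6255 CPM in 5% pdRBC (-1.33, -1.47 to -1.19) and at 2495 CPM against 5322 CPM in hRBC (-1.09, -1.28 to -0.91). Their summed share per barcode had a median of 4.67% against 16.7% of non-MT UMIs in 5% pdRBC and 9.17% against 14.8% in hRBC. Of 18 translation factors 5 were lower in 5% pdRBC and 2 in hRBC, the hRBC share again near that of all genes, and 0 were higher. EEF1B2, a subunit of the elongation factor exchange complex, stood at 451 CPM against 1102 CPM and at 453 CPM against 995 CPM.

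Of 53 measured nuclear-encoded respiratory chain genes in 5% pdRBC, 16 were called lower and 0 higher (median log2 fold -0.83), and of 49 in hRBC 9 were lower and 0 higher (-0.65). Over all measured genes 17.2% were lower in 5% pdRBC and 10.1% in hRBC, with medians of -0.29 and -0.25. COX5B, a cytochrome c oxidase subunit, stood at 79.9 CPM against 212 CPM in 5% pdRBC (-1.35, -2.28 to -0.66) and at 90.5 CPM against 236 CPM in hRBC (-1.30, -2.51 to -0.45). NDUFA4, another respiratory subunit, stood at 154 CPM against 317 CPM and at 131 CPM against 414 CPM. A separate list of mitochondrial chaperone and quality genes was mixed in 5% pdRBC, with 2 of 10 measured lower, 1 higher and 4 with a log2 fold above 0. In hRBC 1 of 5 was lower and 0 higher. Its lowest gene in 5% pdRBC was TOMM20, a receptor of the protein import pore in the outer mitochondrial membrane. TOMM20 stood at 68.5 CPM against 252 CPM in 5% pdRBC (-1.82, -2.84 to -1.08) and at 131 CPM against 234 CPM in hRBC (-0.78, -1.75 to -0.06).

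The 15 genes that stood lowest in both libraries, with the same gene classes left out as for the highest, were DKK1, ALYREF, BOLA3, C1QBP, NHP2, RHOG, PDLIM2, NDUFB3, GABARAPL2, COX5B, SUMO3, SRXN1, STOML2, PTS and SNHG6. Apart from PTS (43.6 kb) each of them spans at most 19.7 kb. DKK1, a secreted inhibitor of Wnt signalling, stood at 34.2 CPM against 122 CPM in 5% pdRBC (-1.72, -3.28 to -0.71) and at 60.4 CPM against 207 CPM in hRBC (-1.66, -3.23 to -0.65). BOLA3, which takes part in building iron-sulfur clusters of mitochondrial enzymes, stood at 39.9 CPM against 122 CPM and at 20.1 CPM against 108 CPM. SRXN1, which restores oxidised peroxiredoxins, stood at 108 CPM against 320.1 CPM and at 121 CPM against 304 CPM. In absolute UMIs these genes were sparse in the high mitochondrial barcodes, so their intervals are wide.

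The barcodes carried endothelial transcripts. PECAM1, a junctional adhesion receptor, stood at 645 CPM against 720.01 CPM in 5% pdRBC (-0.15, -0.44 to 0.11) and at 1207 CPM against 1045 CPM in hRBC. CDH5, the cadherin of endothelial junctions, stood at 434 CPM against 627 CPM in 5% pdRBC and at 865 CPM against 719 CPM in hRBC. VWF, the von Willebrand factor, stood at 1295 CPM against 466 CPM in 5% pdRBC (1.48, 1.28 to 1.67) and at 795 CPM against 478 CPM in hRBC (0.74, 0.39 to 1.06), though at -0.035 among hRBC barcodes of 1000 to 3000 UMIs. Of the 10 endothelial identity genes, ERG, TEK and VWF were called higher and CLDN5 lower in 5% pdRBC, and ERG, TEK and TIE1 were higher and 0 lower in hRBC. The list was mixed below the 2-fold limit. In 5% pdRBC 5 of 10 had a log2 fold under 0, with 4 intervals below a fold of 1 and 3 above it. In hRBC 2 of 9 measured had a log2 fold under 0, with 1 interval below and 5 above. Markers of other cells were summed list by list. No UMI of the 6 neutrophil or the 6 B cell genes was found in either set of high mitochondrial barcodes, and of 7 monocyte genes only CD68 had UMIs, 1 in 5% pdRBC and 3 in hRBC. The globin genes HBA1, HBA2 and HBB were at 0 in both sets, while the erythroid list summed to 211 CPM against 115 CPM in 5% pdRBC and 231 CPM against 109 CPM in hRBC, from SLC25A37 (27 and 17 UMIs), BPGM (9 and 6 UMIs) and 1 UMI of CA1. The platelet list summed to 1147 CPM against 1570.1 CPM in 5% pdRBC and 905 CPM against 1690.4 CPM in hRBC, nearly all of it GNG11, with PF4 and PPBP at 0. The fibroblast and mural list summed to 211 CPM against 346 CPM and 332 CPM against 427 CPM, nearly all of it RGS5, with COL1A1, COL3A1 and PDGFRB at 0. The T and NK list summed to 34.2 CPM against 84.1 CPM and 40.2 CPM against 84.7 CPM. The epithelial list summed to 68.5 CPM against 115 CPM and 121 CPM against 149 CPM, mostly KRT18 (8 and 12 UMIs). The lymphatic list summed to 28.5 CPM against 14.0 CPM and 20.1 CPM against 12.8 CPM, from 5 and 2 UMIs. The part of these genes in the other differences was not tested.

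The stress and death lists are read beside the 17.2% of all measured genes called lower in 5% pdRBC and the 10.1% in hRBC. The shares called higher were 18.1% and 10.5%. Of 7 apoptosis genes measured in 5% pdRBC, BAD and BAX, both pro-apoptotic members of the BCL2 family, were lower, and of 5 in hRBC BAD was lower; 0 were higher. BAX stood at 199.7 CPM against 416 CPM in 5% pdRBC (-1.04, -1.58 to -0.58) and at 231 CPM against 394 CPM in hRBC (-0.74, -1.43 to -0.18). Of 6 p53 targets measured in 5% pdRBC 1 was higher and 1 lower, and 5 had a log2 fold under 0. Of 5 in hRBC 1 was higher and 0 lower, and 3 had a log2 fold under 0. The higher gene in both was MDM2, the ubiquitin ligase that degrades p53. It stood at 297 CPM against 99.1 CPM in 5% pdRBC (1.596, 1.15 to 1.98) and at 272 CPM against 113 CPM in hRBC (1.29, 0.65 to 1.83). In hRBC its log2 fold was -0.58 outside the cluster described below. GDF15, a secreted stress cytokine, was lower in 5% pdRBC, at 28.5 CPM against 129 CPM, and stood at 121 CPM against 244 CPM in hRBC. Among heat shock genes 1 of 11 in 5% pdRBC and 1 of 9 in hRBC were lower and 0 higher. Of the unfolded protein and integrated stress genes 5 of 10 were lower in 5% pdRBC (median log2 fold -1.01) and 1 of 9 in hRBC (-0.09). CALR, a calcium-binding chaperone of the endoplasmic reticulum, stood at 217 CPM against 641 CPM in 5% pdRBC (-1.55, -2.06 to -1.11) and at 674 CPM against 910 CPM in hRBC (-0.42, -0.80 to -0.08). Of the heme and oxidant genes 4 of 12 were lower in 5% pdRBC and 1 of 11 in hRBC, and 0 were higher. The ferritin chains FTH1 and FTL, which store iron, were called lower in 5% pdRBC: FTH1 stood at 14747 CPM against 36696 CPM there and at 14798 CPM against 25908 CPM in hRBC (-0.81, -0.88 to -0.73). Of 14 listed leukocyte recruitment genes 4 were measured in 5% pdRBC, with 2 lower and 0 higher, and 1 in hRBC, which was not called. Of 4 measured NF-kB feedback genes in 5% pdRBC, NFKBIZ was higher (194 CPM against 55.98 CPM, 1.81, 1.25 to 2.29), though at -0.13 among barcodes of 1000 to 3000 UMIs, and 0 were lower. Of 2 measured in hRBC 0 were called. Of the immediate early genes 3 of 14 were lower in 5% pdRBC and 1 of 6 in hRBC, and 0 were higher. Of the flow-responsive genes 1 of 11 was higher and 1 lower in 5% pdRBC, and 1 of 8 was higher and 0 lower in hRBC. Of the proteasome genes 1 of 20 was lower and 0 higher in 5% pdRBC, and 3 of 16 were lower and 1 higher in hRBC.

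Levels were also set out by class of MT- share. In 5% pdRBC NEAT1 stood between 2427 CPM and 2569 CPM in the 3 classes under 4% MT- UMIs, at 4155 CPM from 4% to 5%, just outside the limit, at 9099 CPM from 5% to 6%, just inside it, and at 14080 CPM from 10% to 20%. In hRBC it stood at 2161 CPM from 3% to 4%, 3758 CPM from 4% to 5%, 8248 CPM from 5% to 6%, 4630 CPM from 6% to 8% (10 barcodes), 17123 CPM from 8% to 10% (6 barcodes) and 15546 CPM from 10% to 20% (3 barcodes). Genes over 100 kb took 17.4% of non-MT UMIs from 4% to 5% MT- UMIs and 28.1% from 5% to 6% in 5% pdRBC, and 22.3% and 27.4% in hRBC. Within the selected range the MT- share and the NEAT1 share of a barcode had a Spearman correlation of -0.01 over the 54 barcodes of 5% pdRBC and of 0.50 over the 44 of hRBC; barcodes of 1 library share its preparation, and these are descriptions.

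**Figure D5:**
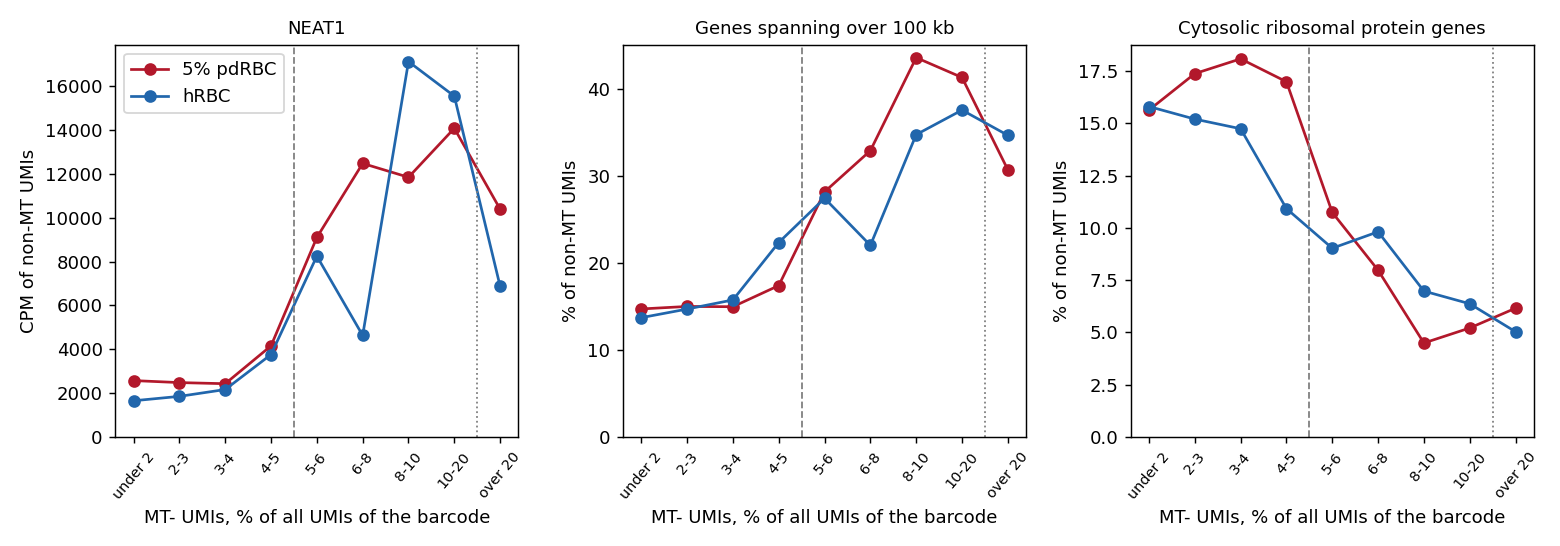
NEAT1 level (CPM), share of genes spanning over 100 kb and share of cytosolic ribosomal protein genes (both % of non-MT UMIs) by class of MT- UMIs per barcode (x axis, %), in 5% pdRBC and hRBC. Each point is the sum over the barcodes of a class; the dashed line marks the 5% limit and the dotted line the 20% limit. The hRBC class from 6% to 8% falls below its neighbours for NEAT1, at 4630 CPM.

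The high mitochondrial barcodes were not uniform. Grouped on gene expression without the MT- genes (Leiden resolution 0.5), 46 of 54 in 5% pdRBC and 21 of 44 in hRBC fell into a single cluster of 651 barcodes led by SOX5 and DKK2. That cluster held 459 of the 1601 barcodes kept in 5% pdRBC and 192 of the 2555 in hRBC, and 10.3% of its barcodes were high mitochondrial ones. At resolution 1.0, 33 of 54 and 13 of 44 fell into a cluster of 72 barcodes led by MECOM and ANO2. Since the cluster was made from the same expression values, its levels are given as a description. The 33 barcodes of 5% pdRBC inside it stood at 16391 CPM of NEAT1 and 44.8% of non-MT UMIs from long genes, and the 13 of hRBC at 16841 CPM and 39.8%. The 21 barcodes of 5% pdRBC outside it stood at 5881 CPM and 23.0%, and the 31 of hRBC at 4992 CPM and 21.1%. The low mitochondrial barcodes stood at 2558 CPM and 14.8% in 5% pdRBC and at 1888 CPM and 14.7% in hRBC. Without the barcodes of that cluster the calls dropped to 52 higher and 36 lower in 5% pdRBC and to 21 higher and 37 lower in hRBC. With fewer barcodes, fewer genes were measured too. The median MT- share was 9.52% inside and 8.33% outside in 5% pdRBC, and 5.88% inside and 5.70% outside in hRBC. The 2 high mitochondrial barcodes of 5% pdRBC with 10000 UMIs or more stood at 2149 CPM of NEAT1 and 14.8% long-gene UMIs, near the low mitochondrial barcodes of that depth (2374 CPM and 14.5%). In 5% pdRBC 4 of 54, and in hRBC 1 of 44, had a long-gene share below the median of the low mitochondrial barcodes.

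Between the libraries, the high mitochondrial barcodes of 5% pdRBC were set against those of hRBC. Of 2160 measured genes 99 were called higher (4.58%) and 99 lower (4.58%) in 5% pdRBC. The barcodes of 5% pdRBC had the larger MT- shares, and 33 of 54 against 13 of 44 lay in the cluster led by MECOM and ANO2. ANO2 was higher in 5% pdRBC, at 788 CPM against 241 CPM in hRBC (log2 fold 1.68, 1.07 to 2.40), and so were MECOM (1.08, 0.71 to 1.48) and PREX2 (1.16, 0.55 to 1.86). NEAT1 differed less (0.27, 0.16 to 0.38), and MALAT1 stood at a log2 fold of 0.01 (-0.05 to 0.08). Both values varied with the setting. With barcodes matched by class of UMIs, NEAT1 stood at 0.029 (-0.087 to 0.14) and MALAT1 at -0.16 (-0.23 to -0.09). In that setting ANO2 stood at 1.45, MECOM at 0.86 and PREX2 at 1.04. With equal weight for every barcode NEAT1 stood at 0.59 and MALAT1 at 0.27 (0.19 to 0.35). With barcodes of 8% to 20% MT- UMIs alone, 35 against 9, the log2 fold was 0.58 for ANO2, 0.55 for MECOM, 0.57 for PREX2 and -0.31 for NEAT1, and the counts were 21 higher and 11 lower. Outside that cluster, which was made from these same genes, the log2 fold was -0.10 for MECOM (-0.86 to 0.68), 1.32 for ANO2 (0.20 to 2.72), 0.38 for PREX2 (-0.74 to 1.63) and 0.24 for NEAT1 (0.02 to 0.45), and 36 genes were higher and 68 lower. In 5% pdRBC the low mitochondrial barcodes differed from those of hRBC by a log2 fold of 0.24 for ANO2, 0.19 for MECOM and 0.44 for NEAT1.

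The 10 genes with the largest folds of 5% pdRBC over hRBC high mitochondrial barcodes were FAM241A, NRG1, USP12, PLEKHG1, NFKBIZ, GULP1, SPIDR, TBC1D9, ATP2B1 and SLC4A7. Clone-named, LINC and the other gene classes left out above were left out of this ranking and of that of the 10 lowest. NRG1, a ligand of ERBB receptors, stood at 656 CPM against 70.4 CPM (3.13, 2.13 to 4.57), and 43 of its 115 UMIs in 5% pdRBC came from a single barcode; without the top barcode of each library the log2 fold was 2.92. NFKBIZ, an atypical inhibitor of NF-kB that is induced by inflammatory signals, stood at 194 CPM (2.48, 1.02 to 5.03) against 30.2 CPM in hRBC, where it had 3 UMIs. The 10 lowest were GRN, SELENOF, MMP14, SRI, C11orf58, CANX, HYAL2, HSP90B1, SERPINH1 and SCARB2. HSP90B1 and CANX, both chaperones of the endoplasmic reticulum, stood at 245 CPM against 875 CPM (-1.83, -2.40 to -1.29) and at 188 CPM against 684 CPM (-1.85, -2.51 to -1.24). SERPINH1, a collagen chaperone, stood at 74.2 CPM against 262 CPM (-1.79, -2.90 to -0.81). In the low mitochondrial barcodes the log2 fold of 5% pdRBC over hRBC was -0.34 for HSP90B1 and -0.30 for CANX. Of the secreted and matrix genes 5 of 23 were lower and 0 higher in the high mitochondrial barcodes of 5% pdRBC, where 4.58% of all measured genes were lower, and of 5 unfolded protein and integrated stress genes 2 were lower and 0 higher.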

How the data were processed

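Single-cell RNA-seq of HUVECs was deposited as 1 gene-by-barcode matrix of raw UMI counts per library, which come from the authors' run of Cell Ranger (7.0.0 per the file headers) on GRCh38 (per the submitters' processing notes), with an annotation release, intron counting and strand setting not given in the sources used here. The deposited counts were used as they are. The members and the 37 gene lists were chosen with earlier results of these data known. Counts outside the 13 MT- genes were summed over barcodes and given as CPM of the non-MT sum; folds had 0.5 UMIs added to each sum, with exact Clopper-Pearson 95% intervals. Doublets were not called, and no other barcode was removed. Gene spans came from GENCODE 29, which holds 34616 of the 36601 gene IDs (94.6%); overlapping genes were not separated. Named genes were the 15 higher and 15 lower in both libraries by the smaller fold, the 10 and 10 largest between the libraries, the 4 label genes and up to 4 per list. The rankings left out MT-, cytosolic ribosomal protein, hemoglobin, clone-named, LINC, XIST and Y-linked genes, and genes whose interval held a fold of 1. PECAM1, CDH5, CLDN5, GAS5 and SLC25A37 were named outside this rule, with their values known. Clustering used Scanpy 1.11.5 (2000 variable genes, 30 components, 15 neighbours). Python 3.11.15, SciPy 1.17.1 and pandas 2.3.3 were used, and folds and intervals were tested on simulated data. The simulated sums carried counting error only and no variation between barcodes, so they check the calculation and not the spread of the real barcodes. Counts of genes were recomputed under 13 other settings, and 2 more were added after the data were seen: leaving out each gene's top barcode, and leaving out the cluster led by MECOM and ANO2.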

Additional observations from a re-analysis of the deposited data

Results flagged for a closer look

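FAM241A and MMP14 had opposite folds of the high over the low mitochondrial barcodes in the 2 libraries, with both intervals leaving out 0; the difference was not tested. FAM241A had a log2 fold of 0.81 in 5% pdRBC and of -2.09 in hRBC, where it had 2 UMIs in the high mitochondrial barcodes; 16 of its 41 UMIs in 5% pdRBC came from a single barcode, and without that barcode the log2 fold was 0.16. MMP14, a membrane-bound matrix metalloproteinase, had a log2 fold of -1.07 in 5% pdRBC and of 0.99 in hRBC, from 10 and 25 UMIs.

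NEAT1 was also above its level in the low mitochondrial barcodes (2558 CPM in 5% pdRBC and 1888 CPM in hRBC) in several of the classes that the selection left out, but not in each. The 5 barcodes of 5% pdRBC with over 20% MT- UMIs stood at 10390 CPM (interval 8238 to 12931), and the 4 of hRBC at 6869 CPM (4667 to 9750.1). The 96 hRBC barcodes with 5% to 20% MT- UMIs that missed the limits on UMIs or genes stood at 7484 CPM (6847 to 8165), with 25.4% of non-MT UMIs from genes over 100 kb. The 1197 hRBC barcodes that missed the same limits with under 5% MT- UMIs stood at 1455 CPM and 14.4%. In 5% pdRBC the 3 barcodes with 5% to 20% MT- UMIs that missed these limits stood at 2367 CPM (645 to 6060.1, from 4 UMIs), not above the low mitochondrial barcodes, and the 17 with under 5% MT- UMIs stood at 3493 CPM (2528 to 4706).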

How the results depend on the processing

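With 1 library per condition no replicate could be left out and nothing was tested; counting error and the depth of the high mitochondrial barcodes limit every value. No paired analysis was possible because each condition has 1 library and no result comes from a test. Counts of called genes are given in the order high against low mitochondrial barcodes in 5% pdRBC, the same in hRBC, and 5% pdRBC against hRBC high mitochondrial barcodes. At 30 expected UMIs in place of 10, 104 genes were higher and 244 lower, 26 higher and 37 lower, and 15 higher and 18 lower. At 5 expected UMIs 1172, 513 and 173 were higher, and 164 lower between the libraries; with no minimum 2369, 1284 and 207 were higher, and 240 lower between the libraries. Centring on the median gene gave 193 lower in 5% pdRBC, and 286 higher and 74 lower in hRBC. Equal weight for every barcode gave 212 higher and 198 lower between the libraries. Only 1000 to 3000 UMIs gave 226 higher and 234 lower, 62 higher and 81 lower, and a share of barcodes of 30.2% in 5% pdRBC. Barcodes of 8% to 20% MT- UMIs gave 163 higher in 5% pdRBC, 18 higher in hRBC, 21 higher and 11 lower between the libraries, and shares of 2.19% and 0.35%. Those of 5% to 10% gave 304 higher and 249 lower and a share of 1.81% in 5% pdRBC. The hRBC share was 1.14% of all deposited barcodes and 3.64% with 500 or more UMIs and no gene minimum. At Leiden resolution 1.0 the leading cluster held 61.1% and 29.5% of the high mitochondrial barcodes in 5% pdRBC and hRBC.

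Both of the following were chosen after seeing the data. Without each gene's top barcode 859 genes were lower in 5% pdRBC, and 112 higher and 336 lower in hRBC. Leaving out the barcode with the most UMIs of a gene tends to lower its level by construction. The rise in lower calls and the drop in higher calls are therefore not read as results. Without the cluster led by MECOM and ANO2 there were 52 higher and 36 lower, 21 higher and 37 lower, and 36 higher between the libraries.

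Of 5874 comparisons of 418 named values with an alternative, 5217 stayed within the spread, 623 moved and 34 were classed as reversed. The cause was not tested. The 34 are given below, but signs also differed in values classed as same or moved. TIE1 in 5% pdRBC, for example, went from 0.33 to -0.19, and CANX in hRBC from 0.32 to -1.93. Leaving out barcodes found in both libraries left all 418 the same. Settings on expected UMIs change which genes are measured but not a gene's own fold. Part of the stable total was therefore fixed in advance. Among barcodes of 1000 to 3000 UMIs the log2 fold in 5% pdRBC was -0.81 for FAM241A, -0.13 for NFKBIZ, -0.037 for SLC4A7 and 0.86 for NDUFC1, that in hRBC was -0.035 for VWF, and that between the libraries was -0.47 for FTL, which was -0.25 with equal weights. With 8% to 20% MT- UMIs FAM241A had -0.088 in 5% pdRBC and SCARB2 -0.85 in hRBC, and between the libraries FAM155A had -0.45, NEAT1 -0.31, MEG3 -0.018, FTL -0.22 and IGFBP4 0.088. With no gene minimum the list medians, less that of all genes, were -0.83 for nuclear body and splicing genes and -0.11 for chromatin genes in 5% pdRBC, -0.64 for endothelial identity and -0.087 for chromatin genes in hRBC, and 0.041 for the proteasome between the libraries. Without the cluster, DDX17 had -0.043, HSPE1 0.16, PHLDA3 0.22, HSP90AA1 0.014, ICAM2 0.44, IFITM3 0.25, PSMA7 0.036, PSMB1 0.089, GNG11 0.22 and KRT18 0.091 in 5% pdRBC, MDM2 -0.58 and SLC9A3R2 0.11 in hRBC, and between the libraries MECOM had -0.10, LAMC1 -0.11 and the proteasome median 0.63.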

Other observations

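The mitochondrial iron importer SLC25A37 (mitoferrin 1) was the one erythroid-list gene with more than 10 UMIs in the high mitochondrial barcodes. It stood at 154 CPM against 65.0 CPM in the low ones in 5% pdRBC (log2 fold 1.27) and at 171 CPM against 57.1 CPM in hRBC (1.62, under 10 expected UMIs). Of 22 secreted and matrix genes measured in each library, 5 were higher and 4 lower in 5% pdRBC, and 0 were called in hRBC. Over all measured genes 18.1% were higher and 17.2% lower in 5% pdRBC. In that library 13 of the 22 had a log2 fold under 0. LAMB1 and LAMC1, both laminin chains of the basement membrane, were called higher in 5% pdRBC. LAMB1 stood at 599 CPM against 218 CPM and LAMC1 at 399 CPM against 159.5 CPM. In hRBC LAMB1 stood at 433 CPM against 225 CPM and LAMC1 at 231 CPM against 144 CPM. Of 33 actin and adhesion genes measured in 5% pdRBC 2 were higher and 2 lower, and of 32 in hRBC 0 were higher and 1 lower. Among them the long gene CALD1, an actin-binding regulator of contraction, was called higher in 5% pdRBC, with a log2 fold of 1.06 there and 0.89 in hRBC. TMSB4X, a short gene whose product sequesters actin, had -1.19 in 5% pdRBC and -0.72 in hRBC.

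Some low mitochondrial barcodes reached the long-gene share of the high ones. In 5% pdRBC 3 of 1274 had at least the median long-gene share of the high mitochondrial barcodes (40.3%), and 2 of the 3 had under 1% MT- UMIs. In hRBC 36 of 1841 reached the median of 24.8%, and 30 of the 36 had 3% to 5% MT- UMIs. In the cluster led by MECOM and ANO2, 4 low mitochondrial barcodes of 5% pdRBC stood at 13837 CPM of NEAT1, and 21 of hRBC at 5220.5 CPM.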
